A study of Mus musculus with 4 samples.

Results

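The CD94 and NKG2 receptor genes lie side by side on mouse chromosome 6, inside the natural killer gene complex, a region of C-type lectin receptor genes. The group described here is 7 of the 34745 genes in the table: Klrd1, Klrc1, Klrc2, Klrc3, Klrk1, Klre1 and Klri2. They were chosen by name, with their values in this comparison already known, so the differences between groups given for them are a description and no test supports them. The study compared naive CD4+ T cells, taken from the spleens of C57BL/6 mice and cultured for 3 days in conditions that polarize toward regulatory T (Treg) cells. There were 2 wild type libraries, numbered 13 and 15, and 2 libraries with the genotype Setd2-CD4 cre, numbered 22 and 24, called knockout-labelled below. Setd2 is the enzyme behind trimethylation of histone H3 at lysine 36, and the CD4 promoter drives Cre in developing T cells, so both CD4+ and CD8+ T cells descend from cells that carried it. The labels do not say whether each library came from a separate mouse, so p-values here reflect only how far these libraries spread, which may be technical spread.

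Library totals ran from 14599957 to 16030869 counts, and 13279 genes passed the filter on low counts and were tested. Setd2 itself was at 137 and 146 CPM (counts scaled to library size) in wild type and at 137 and 113 CPM in the knockout-labelled libraries, which overlap (log2 fold change -0.17, SE 0.14, edgeR adjusted p = 0.436), so its total level does not check the labels. The 10 CD4 T cell marker genes summed to 3760 and 3964 CPM in wild type and to 3935 and 4014 CPM in the knockout-labelled libraries. Foxp3, the defining factor of Treg cells, was at 242 and 247 CPM in wild type and at 31.9 and 75.8 CPM in the knockout-labelled libraries (log2 fold change -2.18, SE 0.37, edgeR adjusted p = 0.0233). The cells labelled Treg therefore differed between groups in the marker that defines the label.

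CD94, the product of Klrd1, is a lectin-like chain that reaches the cell surface as a partner of an NKG2 chain. With NKG2A, from Klrc1, it makes an inhibitory receptor that recruits phosphatases through tyrosine motifs. With NKG2C or NKG2E, from Klrc2 and Klrc3, it makes an activating receptor that signals through the adaptor DAP12. These pairs bind the nonclassical MHC molecule Qa-1. NKG2D, from Klrk1, shares the locus and the family name but pairs with itself, signals through DAP10 or DAP12 and binds stress-induced ligands. Klre1 and Klri2 encode lectin-like chains that pair with each other in an activating receptor, and Klri1 encodes the alternative, inhibitory partner of Klre1. The family is best known from natural killer cells, and its members also appear on effector T cells.

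All 7 members were higher in both knockout-labelled libraries than in either wild type library, where 31.1% of the 13279 genes tested were (63.8% did not overlap in either direction). All 7 were also past the edgeR threshold on the higher side (adjusted p below 0.05), where 5.53% of genes tested were and 4.59% were called lower. Since the members were chosen on this contrast, nothing is read from those counts. The filter was passed in both wild type libraries by 6 of the 7, and Klrc3 passed it through the knockout-labelled group, where it was high. The summed level of the 7 genes was 78.4 and 91.8 CPM in wild type against 340 and 281 CPM in the knockout-labelled libraries. Their median log2 fold change was 1.89, beside -0.0013 over all genes tested. Klre1, the lowest of the 7 at 1.59, was exceeded or equalled by 330 genes tested (2.49%), and Klrc2, the highest at 2.75, by 83 (0.625%). The threshold was passed most narrowly by Klre1, at an edgeR adjusted p of 0.0440.

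**Figure D1:**
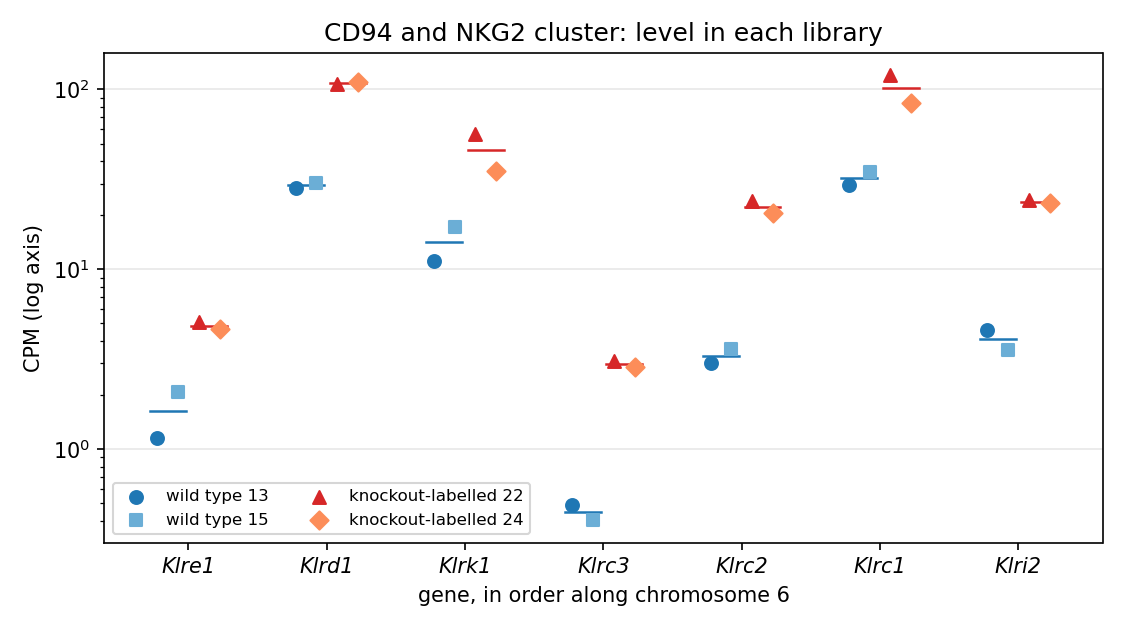
CPM on a log axis for each of the 7 members in each of the 4 libraries, in locus order from left to right. Each point is 1 library, blue for wild type and red or orange for knockout-labelled. Every red or orange point lies above both blue points of its gene, and the pair of knockout-labelled points is widest for Klrk1 (56.7 and 35.4 CPM).

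Klrd1 (ENSMUSG00000030165, GRCm38 chromosome 6, 129591782 to 129598775, plus strand), the chain shared by all CD94 receptors, was at 28.4 CPM in wild type 13, 30.3 in wild type 15, 107 in knockout-labelled 22 and 110 in knockout-labelled 24. The libraries of each group lay close together and far from the other group. The log2 fold change was 1.89 (SE 0.13), a 3.70-fold difference, and it stayed between 1.84 and 1.93 when any library was left out. None of its 50-base transcript stretches is found in the transcripts of another gene, so its reads are not shared with a relative.

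Klrc1 (ENSMUSG00000030167, 129666015 to 129678973, minus strand), the inhibitory NKG2A chain, was at 29.6 and 34.6 CPM in wild type 13 and 15 and at 120 and 83.9 CPM in knockout-labelled 22 and 24. The groups did not overlap, but the knockout-labelled libraries differed from each other by 1.43-fold. Its log2 fold change was 1.67 (SE 0.20), with a range of 1.40 without knockout-labelled 22 to 1.90 without knockout-labelled 24. In counts per library, Klrc1 and Klrd1 were the most abundant members, with 483 and 464 counts in wild type 13 and 1796 and 1596 counts in knockout-labelled 22.

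The activating CD94 partners had the largest fold differences of the cluster beside Klri2. Klrc2 (ENSMUSG00000052736, 129647496 to 129660689, minus strand), which encodes NKG2C, was at 3.00 and 3.62 CPM in wild type 13 and 15 and at 24.0 and 20.6 CPM in knockout-labelled 22 and 24. This is a log2 fold change of 2.75 (SE 0.21), or 6.71-fold, from a level below that of Klrc1 in every library. Klrc3 (ENSMUSG00000033027, 129639064 to 129643337, minus strand), which encodes NKG2E, had 8 and 6 counts in wild type against 46 and 45 counts in the knockout-labelled libraries, or 0.490, 0.402, 3.08 and 2.87 CPM. Its 6.54-fold difference (log2 fold change 2.71, SE 0.42) rests on those few counts, and the edgeR adjusted p of 0.0199 became 0.0650 without wild type 13 and 0.102 without wild type 15.

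Klrc2 and Klrc3 are near copies in the sequence around their starts. Aligned over the 300-base RefSeq promoter windows (GRCm38.p6; 250 bases before and 50 after the start), 296 columns were identical, 3 were mismatches and 1 was a gap, which is 98.7% identity. The stretch shown for both is the part farthest from the start, where the aligned columns lie outside both genes by the coordinates given above. Its 117 aligned columns hold 2 of the 4 differing columns, an extra base in Klrc3 and 1 substitution, given in capitals. Both are written 5′ to 3′ on the minus strand, the strand of the genes, at chr6:129660690-129660805 and chr6:129643422-129643538.
Klrc2: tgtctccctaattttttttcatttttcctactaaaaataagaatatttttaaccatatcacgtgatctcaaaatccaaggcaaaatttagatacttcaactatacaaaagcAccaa
Klrc3: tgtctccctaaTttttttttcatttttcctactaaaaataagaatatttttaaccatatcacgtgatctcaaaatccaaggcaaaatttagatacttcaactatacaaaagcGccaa

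The transcripts overlap in sequence as well. Of the distinct 50-base stretches in the annotated Klrc3 transcripts, 36.3% occur in another gene's transcripts, and 31.1% occur in those of Klrc2. For Klrc1 the shared part was 38.6%, nearly all of it with Klrc2 (36.6%), and for Klrc2 it was 16.3%. At 100 bases the shared parts were 14.6% for Klrc1, 7.09% for Klrc2 and 16% for Klrc3. RSEM, the estimator named in the submitters' processing notes, divides shared reads between such genes, so the split among Klrc1, Klrc2 and Klrc3 is uncertain. Klrk1 shares no 50-base stretch with another gene, Klre1 shares 0.308% and Klri2 2.77%.

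Within the 3 Klrc genes the balance differed between groups. Klrc2 and Klrc3 together held 10.6% of the Klrc1, Klrc2 and Klrc3 counts in wild type 13 (exact Clopper-Pearson 95% interval 8.09 to 13.5%, 57 of 540 counts) and 10.4% in wild type 15 (8.04 to 13.2%, 60 of 576). They held 18.4% in knockout-labelled 22 (16.8 to 20%, 404 of 2200) and 21.8% in knockout-labelled 24 (19.9 to 23.9%, 367 of 1681). The intervals of the groups do not overlap, but they cover counting error only. They leave out the uncertain division of shared reads among the 3 genes and the spread between libraries. An exact test of 2 against 2 libraries cannot give a p below 0.333. Klrc1 still held most of the counts, at 81.6% and 78.2% in the knockout-labelled libraries. Within the activating pair, Klrc3 held 14% and 10% of the counts in wild type against 11.4% and 12.3% in the knockout-labelled libraries, which overlap.

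**Figure D2:**
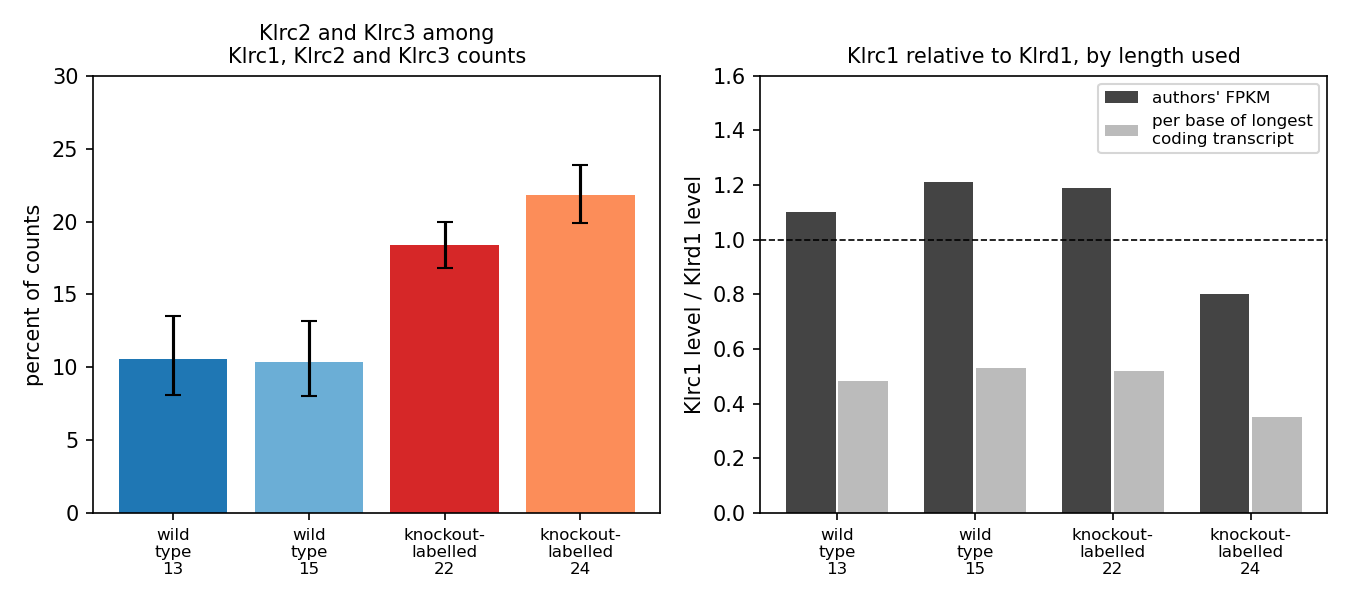
Left, percent of Klrc1, Klrc2 and Klrc3 counts that belong to Klrc2 or Klrc3 in each library, with exact binomial 95% intervals as error bars: 10.6 and 10.4% for the wild type bars, 18.4 and 21.8% in the knockout-labelled libraries. Right, the level of Klrc1 divided by that of Klrd1 in each library, from the authors' FPKM (dark bars) and per base of the longest coding transcript (light bars), with a dashed line at equality. The dark bars lie above 1 in 3 libraries, and every light bar lies below it.

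Klrk1 (ENSMUSG00000030149, 129610323 to 129623864, minus strand), which encodes the activating receptor NKG2D, was at 11.1 and 17.2 CPM in wild type 13 and 15 and at 56.7 and 35.4 CPM in knockout-labelled 22 and 24. Both pairs of libraries were spread by more than those of Klrd1, 1.55-fold in wild type against 1.6-fold in the knockout-labelled pair, and the groups still did not overlap. The log2 fold change was 1.70 (SE 0.30), between 1.33 without knockout-labelled 22 and 2.05 without wild type 15.

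Klre1 (ENSMUSG00000050241, 129577905 to 129585827, plus strand) was the least abundant member after Klrc3 in CPM. It was at 1.16 and 2.08 CPM in wild type 13 and 15 and at 5.09 and 4.66 CPM in knockout-labelled 22 and 24, a log2 fold change of 1.59 (SE 0.37). The edgeR adjusted p of 0.0440 became 0.204 when wild type 13 was left out, 0.0914 for wild type 15 and 0.0716 for knockout-labelled 22. Its partner Klri2 (ENSMUSG00000043932, 129729041 to 129740484, minus strand) was at 4.60 and 3.56 CPM in wild type and at 24.2 and 23.5 CPM in the knockout-labelled libraries. That is a 5.82-fold difference (log2 fold change 2.54, SE 0.21), with the knockout-labelled libraries within 1.03-fold of each other. Klri1, the inhibitory alternative to Klri2, had 1 count in wild type 15 and 0 in the other 3 libraries, where 3 counts would be 0.184 to 0.201 CPM.

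The members did not all differ alike between the libraries of a group. Knockout-labelled 22 was above knockout-labelled 24 for Klrk1 (1.6-fold), Klrc1 (1.43-fold), Klrc2 (1.17-fold), Klre1 (1.09-fold), Klrc3 (1.07-fold) and Klri2 (1.03-fold), and below it for Klrd1 (0.967-fold). In wild type, library 15 was above library 13 for 5 members and below it for Klrc3 (0.821-fold) and Klri2 (0.773-fold). Several of these ratios set no order. In knockout-labelled 22 and 24, Klrc3 had 46 and 45 counts, Klre1 76 and 73 and Klri2 361 and 368. In wild type 13 and 15, Klrc3 had 8 and 6 counts. Counting error alone can reorder such pairs. Klrc1, the most abundant partner of Klrd1, therefore differed between the knockout-labelled libraries, while Klrd1 was nearly equal in them.

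Levels of different genes were compared per length, with the authors' FPKM, which are counts scaled by gene length and library size. In wild type the order was Klrc1 at 12.4 ± 1.40 FPKM (SD, n = 2), Klrd1 at 10.8 ± 0.495, Klrk1 at 1.58, Klri2 at 1.06, Klrc2 at 0.458, Klrc3 at 0.402 and Klre1 at 0.389 FPKM. The last 3 did not differ beyond their spread. Klrk1 was above Klri2 in both wild type libraries, at 1.24 against 1.2 FPKM in library 13 and 1.93 against 0.928 FPKM in library 15. In the knockout-labelled libraries Klrd1 was at 38.3 ± 2.08 and Klrc1 at 37.8 ± 8.38 FPKM (SD, n = 2), which is within the spread of Klrc1. They were followed by Klri2 at 5.96, Klrk1 at 4.92, Klrc2 at 2.95, Klrc3 at 2.57 and Klre1 at 1.12 FPKM. There the means of Klri2 and Klrk1 stood in the other order than in wild type, and their difference was within the spread of Klrk1 (SD 1.47 FPKM).

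The order of the top pair depends on the length used. The gene length implied by each count and FPKM was 2636 bases for Klrc1 and 2781 for Klrd1, while their longest coding transcripts in the annotation are 1984 and 919 bases. By FPKM, Klrc1 was at 1.10 and 1.21 times the level of Klrd1 in wild type and at 1.19 and 0.801 times in knockout-labelled 22 and 24. Per base of the longest coding transcript, an alternative chosen after the data were seen, the ratios were 0.482, 0.530, 0.521 and 0.352, so Klrd1 was the higher gene in each library. On that scale Klrd1 was at 31.9 CPM per kilobase in wild type against 118 in the knockout-labelled libraries, and Klrc1 at 16.2 and 51.4. Over 10649 genes with at least 40 counts in each library, the implied length was a median of 1.72 times the longest coding transcript, beside 3.03 for Klrd1, 3.28 for Klre1 and 1.33 for Klrc1. A fold difference of 1 gene between libraries does not use a length.

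Along the chromosome the members span 163 kb in the order Klre1, Klrd1, Klrk1, Klrc3, Klrc2, Klrc1 and Klri2. The gaps between neighbouring members run from 4.16 kb (Klrc3 to Klrc2) to 50.1 kb (Klrc1 to Klri2), and Klri1 lies in the last gap. No member's gene model overlaps another gene on either strand. Read along the locus, the log2 fold changes were 1.59, 1.89, 1.70, 2.71, 2.75, 1.67 and 2.54. The 2 largest estimates belong to the adjacent genes Klrc3 (SE 0.42) and Klrc2 (SE 0.21), and the smallest to the first gene, Klre1 (SE 0.37). Those of Klrc3, Klrc2 and Klri2 (SE 0.21) lie within their errors of each other. So do those of Klre1, Klrc1 (SE 0.20) and Klrk1 (SE 0.30), so the order within each set is not resolved. The split of reads between Klrc3 and Klrc2 is also uncertain, as given above.

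The window of 500 kb on either side of the member starts holds 41 genes, the 7 members and 34 others. Of the others, 25 did not pass the filter, with at most 17 counts in any library and 10 of them at 0 in all 4 libraries. Of the 9 tested, edgeR called 1 higher in the knockout-labelled libraries and 0 lower, with 4 higher and 0 lower at an unadjusted p below 0.05. DESeq2 called 2 higher and limma-voom 1, and neither called any lower. The gene called by all 3 was Gabarapl1, an autophagy gene that starts 44.7 kb before Klre1. It was at 57.4 and 47.6 CPM in wild type and at 161 and 113 CPM in the knockout-labelled libraries (log2 fold change 1.38, SE 0.20, edgeR adjusted p = 0.0184, and 0.0705 without wild type 15). RP23-336I5.8, which lies inside the Gabarapl1 gene model on the same strand, had a log2 fold change of 1.59 (SE 0.65, edgeR adjusted p = 0.148) on at most 24 counts. It is among the 4 genes higher at an unadjusted p below 0.05. Its 4 and 8 wild type counts lie below the filter on low counts, which it passed through the knockout-labelled group alone. Nothing is therefore read from its place in that count. Whether its reads can be told apart from those of Gabarapl1 was not tested.

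The other tested genes of the window stood closer to 0 than the members. Among the lectin genes that precede the cluster, Cd69, an early activation receptor, had a log2 fold change of 0.54 (SE 0.14, edgeR adjusted p = 0.0528, below the threshold with DESeq2) and Clec2d, a ligand of an inhibitory receptor, 0.54 (SE 0.18, edgeR adjusted p = 0.101). Clec12a had 0.91 (SE 0.41), Clec7a -0.33 (SE 0.37) and Olr1 0.04 (SE 0.35), and 2310001H17Rik had -0.27 (SE 0.18). Beyond Klri2 the first tested gene was Klra7, a Ly49 receptor gene 641 kb after the start of Klre1, with 0.70 (SE 0.40, edgeR adjusted p = 0.271). No test of position was made.

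**Figure D3:**
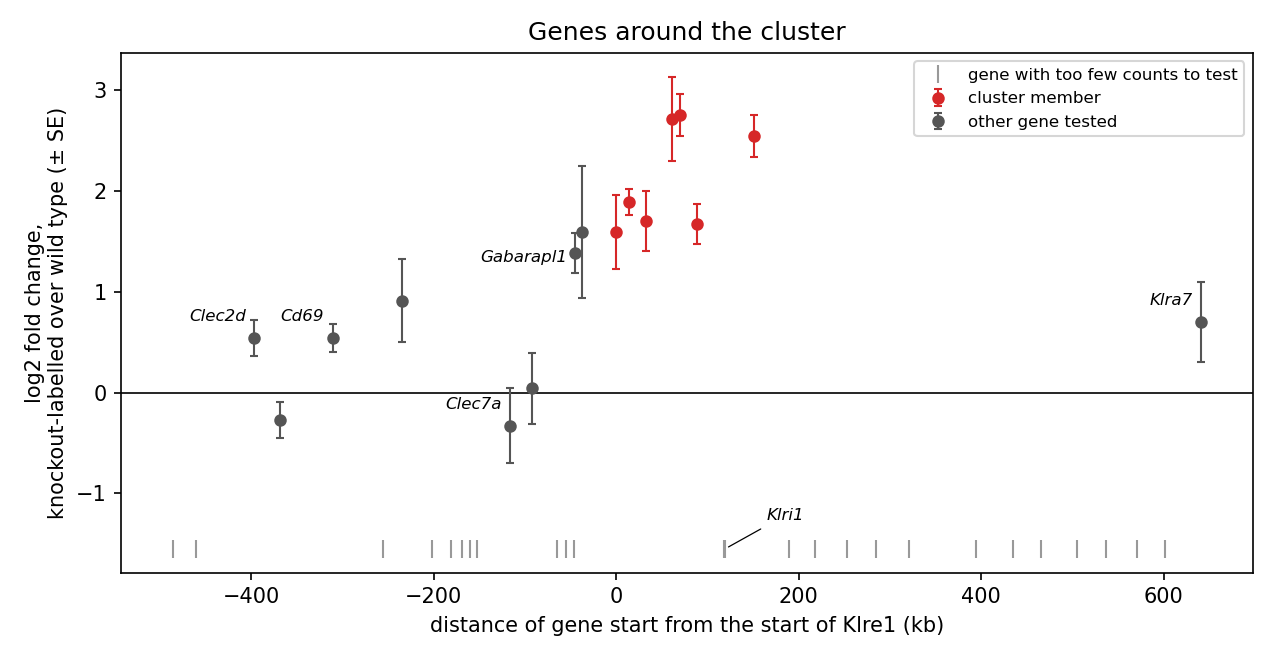
Log2 fold change (knockout-labelled over wild type) of each tested gene against its distance in kb from the start of Klre1. Red points are members and grey points other tested genes of the window, with approximate standard errors as bars, and grey ticks along the bottom mark genes with too few counts to test. The 7 members lie at 1.59 and above between 0 and 151 kb, and Gabarapl1 (1.38), just before them, was the other gene past the threshold.

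The wider receptor families of the natural killer gene complex were next examined from gene lists. Of 13 Ly49 (Klra) receptor genes, which bind classical MHC class I, 4 were tested and edgeR called 0 (median log2 fold change 0.21), with 1 lower at an unadjusted p below 0.05 and 0 by DESeq2 or limma-voom. The 1 lower was Klra3, at 0.797 and 1.14 CPM in wild type against 0.402 and 0.191 CPM in the knockout-labelled libraries. It passed the filter on low counts through the wild type group alone, so nothing is read from that count. The most abundant Ly49 gene was the pseudogene Klra13-ps, at 3.13 and 2.35 CPM in wild type against 2.94 and 1.91 CPM in the knockout-labelled libraries. Klra7 was at 1.29 and 1.07 CPM in wild type against 2.21 and 1.66 CPM in the knockout-labelled libraries. Klra1 was at 0.245 and 0.805 CPM and then 0.870 and 0.702 CPM, which overlap. The 13 Ly49 genes summed to 7.11 to 7.48 CPM in wild type against 6.38 to 9.64 CPM in the knockout-labelled libraries. Of 24 other lectin genes of the complex, 22 were matched and 9 tested. Here edgeR called 0 (median 0.54), with 2 higher at an unadjusted p below 0.05, DESeq2 called Cd69 higher and limma-voom called 0. Clec2i, a lectin gene outside the window above, was at 68.2 and 63.1 CPM in wild type against 78.6 and 77.4 CPM in the knockout-labelled libraries (log2 fold change 0.25, SE 0.13, edgeR adjusted p = 0.229).

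Promoter sequences were available for 5 members, Klre1, Klrk1, Klrc3, Klrc2 and Klrc1, in RefSeq (GRCm38.p6). They were searched on both strands for 7 short motifs of factors known in T and natural killer cells, chosen with the sequences in view. The core bound by Runx factors, TGTGGT, was in the 300-base window of 5 of 5, where 16.8% of all 32817 windows hold it. The AP-1 motif TGANTCA was in 3 of 5 (Klrk1, Klrc3 and Klrc2), against 7.81% of windows, and the E-box CACCTG in 2 of 5 (Klrc3 and Klrc2), against 20.2%. The T-box core AGGTGT, the STAT motif TTCNNNGAA, the NFIL3 motif TTANNTAA and the TCF1 and LEF1 motif CTTTGAT were in none of the 5 windows, against 13.7, 8.29, 6 and 3.73% of windows. Klrc2 and Klrc3 share almost all of their window and are not independent matches. A match says only that these letters are present.

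The Runx core matches are shown because they are the motif that all 5 windows hold. Each line gives 30 bases on the strand of the gene, 5′ to 3′, with the match in capitals. TGTGGT lies on the gene's strand in Klre1 and Klrk1 and on the opposite strand, read as ACCACA, in the 3 Klrc genes. The positions of the first base are -229 for Klre1, -129 for Klrk1, -87 for Klrc1 and, in both Klrc3 and Klrc2, -76 and -49 from the RefSeq start. For Klrc2 this is the start at which its window lines up with that of Klrc3. By the gene coordinates given above, the Klre1 match, both Klrc2 matches and the Klrc3 match at -49 lie inside their gene. Those of Klrk1 and Klrc1 and the Klrc3 match at -76 lie upstream of it. The windows are chr6:129577972-129578001 (plus strand), chr6:129623976-129624005, chr6:129679043-129679072, chr6:129643347-129643376 and chr6:129643320-129643349 for Klrc3, and chr6:129660615-129660644 and chr6:129660588-129660617 for Klrc2 (all minus strand).
Klre1: ttgtgtttaagcTGTGGTtccagagagtca
Klrk1: tgatagctgtgcTGTGGTtgtgtgggggtt
Klrc1: gttgttgttgttACCACAgcactcgtattc
Klrc3 at -76: ttcaatagaatcACCACAgcatagaacaca
Klrc2 at -76: ttcaatagaatcACCACAgcatagaacaca
Klrc3 at -49: acaagtagaattACCACAgagcccagaatt
Klrc2 at -49: acaagtagaattACCACAgagcccagaatt
The Klrc3 and Klrc2 lines are the same letters, while the Klrc1 match sits after a run of gtt repeats that the other genes lack at this place.

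The 250 bases before the start are given whole for Klrk1 and Klrc1, the NKG2D gene and the inhibitory NKG2A gene, to set the match in its surroundings. Both are written on the minus strand, at chr6:129623865-129624114 and chr6:129678974-129679223, with the Runx core match in capitals.
Klrk1: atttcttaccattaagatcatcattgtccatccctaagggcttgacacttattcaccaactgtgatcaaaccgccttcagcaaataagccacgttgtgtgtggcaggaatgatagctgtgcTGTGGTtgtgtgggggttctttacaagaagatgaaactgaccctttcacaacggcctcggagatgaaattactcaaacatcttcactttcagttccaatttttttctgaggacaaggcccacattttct
Klrc1: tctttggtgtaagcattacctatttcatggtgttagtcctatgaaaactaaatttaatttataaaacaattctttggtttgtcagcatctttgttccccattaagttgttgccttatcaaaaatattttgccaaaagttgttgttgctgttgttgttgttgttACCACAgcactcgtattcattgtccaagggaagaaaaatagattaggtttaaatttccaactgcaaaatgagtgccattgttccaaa

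Of 20 transcription factors known for natural killer and effector T cell receptor genes, all tested, 4 rose, 1 fell and 15 did not pass the test (median log2 fold change 0.32). Zeb2, a transcriptional repressor known in terminal effector cells, was at 8.76 and 10 CPM in wild type and at 46.6 and 25.6 CPM in the knockout-labelled libraries (log2 fold change 1.94, SE 0.30, edgeR adjusted p = 0.0202). Tox2, an HMG-box factor, rose from 4.17 and 3.49 CPM to 12 and 9.57 CPM (log2 fold change 1.49, SE 0.24, edgeR adjusted p = 0.0218). Prdm1, which encodes the effector repressor Blimp-1, rose from 13.2 and 12.3 CPM to 25.5 and 29 CPM (log2 fold change 1.09, SE 0.17, edgeR adjusted p = 0.0204). Nfil3, a factor needed for natural killer cell development, rose from 33.8 and 32.5 CPM to 71.1 and 56.7 CPM (log2 fold change 0.94, SE 0.15, edgeR adjusted p = 0.0218). Eomes, a T-box factor of natural killer and memory T cells, fell from 22.7 and 21.7 CPM to 10.2 and 7.53 CPM (log2 fold change -1.32, SE 0.21, edgeR adjusted p = 0.0205).

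Nfil3, Prdm1 and Eomes lost their call when either wild type library was left out, and Tox2 lost it without wild type 15. Their log2 fold changes kept their direction. Without wild type 13 and then 15 they were 0.97 and 0.91 for Nfil3 and 1.14 and 1.03 for Prdm1. For Eomes they were -1.29 and -1.36, and for Tox2 1.62 and 1.37. Calls over all genes also fell in these fits, which leave 1 wild type library, so the lost calls do not single out either library. Zeb2 kept its call without any single library but lost it with limma on log2(FPKM + 1) (log2 fold change 0.65, adjusted p = 0.0600) and on log2(FPKM + 0.1) (1.53, adjusted p = 0.0501). Of the most abundant factors, Ets1 was at 373 CPM in wild type 13 and at 1153, 1150 and 1103 CPM in the other 3 libraries, so a single wild type library stood apart. Tcf7, which encodes TCF1, was at 684 and 654 CPM in wild type against 1068 and 847 CPM in the knockout-labelled libraries (log2 fold change 0.52, SE 0.14, edgeR adjusted p = 0.0597). Stat5b was at 363 and 331 CPM in wild type against 521 and 370 CPM in the knockout-labelled libraries. The Runx genes, named after their values were seen, had log2 fold changes of 0.77 for Runx3 (SE 0.19, edgeR adjusted p = 0.0508), 1.3 for Runx2 (SE 0.33, edgeR adjusted p = 0.0552) and 0.14 for Runx1 (SE 0.15, edgeR adjusted p = 0.546). Their partner Cbfb had -0.53 (SE 0.14, edgeR adjusted p = 0.0575). DESeq2 called 8 of the 20 higher and 2 lower, among them Runx2, Runx3, Tcf7 and Stat5a higher and Cbfb lower, and limma-voom called the same 5 genes as edgeR.

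Of 9 receptor chains for cytokines known to act on these genes, 0 rose and 1 fell with edgeR (median log2 fold change 0.06), with 0 higher and 2 lower at an unadjusted p below 0.05 and the same single call by DESeq2 and limma-voom. Tgfbr1, a chain of the TGF-beta receptor, was at 162 and 161 CPM in wild type and at 92.8 and 101 CPM in the knockout-labelled libraries (log2 fold change -0.73, SE 0.12, edgeR adjusted p = 0.0234, and 0.143 and 0.174 without wild type 13 or 15). Il2rb, the chain shared by the IL-2 and IL-15 receptors, was at 526 and 539 CPM in wild type against 442 and 453 CPM in the knockout-labelled libraries (log2 fold change -0.25, SE 0.10, edgeR adjusted p = 0.156). Il2rg was at 448 to 496 CPM in the 4 libraries. Tgfbr2 was at 229 and 231 CPM in wild type against 300 and 251 CPM in the knockout-labelled libraries, which is not past the threshold.

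The adaptors that the activating receptors need did not pass the test. Tyrobp, which encodes DAP12, was at 2.45 and 2.48 CPM in wild type against 4.02 and 3.19 CPM in the knockout-labelled libraries (log2 fold change 0.54, SE 0.31, edgeR adjusted p = 0.269). Hcst, which encodes DAP10, was at 9.56 and 14.4 CPM in wild type against 8.83 and 13.3 CPM in the knockout-labelled libraries, which overlap (log2 fold change -0.11, SE 0.29, edgeR adjusted p = 0.822). Among all 14 adaptors and enzymes of activating receptors, 2 rose and 12 did not pass the test (median 0.22). Plcg2, a phospholipase, rose from 23.8 and 24.5 CPM to 58.6 and 39.6 CPM (log2 fold change 1.02, SE 0.20, edgeR adjusted p = 0.0324). Vav3, a guanine nucleotide exchange factor, rose from 19.4 and 16.8 CPM to 31.2 and 29.4 CPM (log2 fold change 0.74, SE 0.16, edgeR adjusted p = 0.0390). Without wild type 13 or 15 the edgeR adjusted p was 0.104 and 0.123 for Plcg2 and 0.144 and 0.324 for Vav3, and both calls were also lost with limma on log2(FPKM + 1) (0.0564 and 0.0760) and log2(FPKM + 0.1) (0.0510 and 0.0805). The most abundant of the list, Pik3cd, Plcg1 and Lat, had log2 fold changes of 0.29, 0.14 and 0.09, with edgeR adjusted p of 0.203, 0.572 and 0.643.

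On the inhibitory side, edgeR called 0 of 7 phosphatases and partners (median log2 fold change -0.09), with 1 higher and 1 lower at an unadjusted p below 0.05. DESeq2 called Cblb higher and Ptpn11 lower, and limma-voom called 0. Ptpn6, which encodes the phosphatase SHP-1, was at 262 and 297 CPM in wild type against 236 and 221 CPM in the knockout-labelled libraries (log2 fold change -0.29, SE 0.12, edgeR adjusted p = 0.161). Ptpn11, which encodes SHP-2 and was named after its values were seen, had -0.50 (SE 0.13, edgeR adjusted p = 0.0559). Cblb was at 302 and 300 CPM in wild type against 675 and 346 CPM in knockout-labelled 22 and 24, so its difference lay mostly in 1 library. Cbl was at 101 CPM in wild type 13 and at 220 to 284 CPM in the other 3 libraries.

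The ligands were measured in the same cells. A list of 8 genes held Qa-1, the classical MHC class I genes H2-D1 and H2-K1, B2m, and genes of peptide loading. Of these, edgeR called 0 of 8 (median log2 fold change 0.25), with 2 higher and 0 lower at an unadjusted p below 0.05. DESeq2 and limma-voom called 0. H2-T23, which encodes Qa-1, was at 287 and 252 CPM in wild type against 328 and 385 CPM in the knockout-labelled libraries (log2 fold change 0.40, SE 0.13, edgeR adjusted p = 0.0978). H2-D1, whose signal peptide Qa-1 presents to CD94 receptors, was at 2468 and 2315 CPM in wild type against 2863 and 3524 CPM in the knockout-labelled libraries (log2 fold change 0.42, SE 0.13, edgeR adjusted p = 0.0809). B2m and H2-K1 had log2 fold changes of 0.25 and 0.26, with edgeR adjusted p of 0.247 and 0.282. Of 9 ligands of NKG2D, 5 were matched and 3 tested, and edgeR called 0 (median 0.39), with 1 lower at an unadjusted p below 0.05 and 0 by DESeq2 or limma-voom. Ulbp1 was at 42.7 and 47.4 CPM in wild type against 30.1 and 36 CPM in the knockout-labelled libraries (log2 fold change -0.45, SE 0.15, edgeR adjusted p = 0.0976). H60b and Raet1d were at 1.67 CPM or less in every library.

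**Figure D4:**
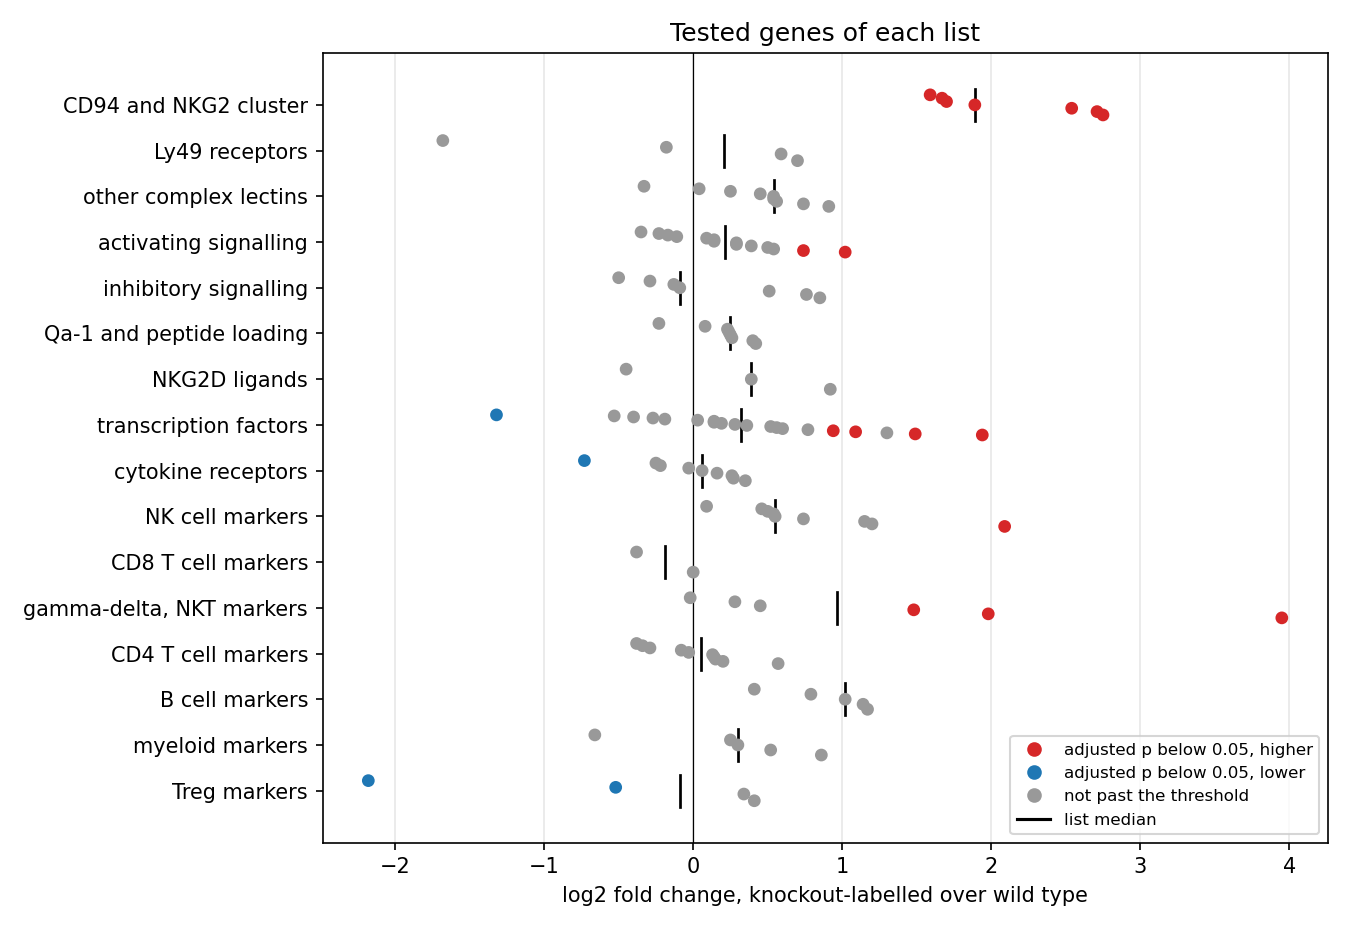
Log2 fold change (knockout-labelled over wild type) of each tested gene in the members and the 15 gene lists, 1 row a list. Red points were past the edgeR threshold and higher, blue points past it and lower, grey points were not past it, and black vertical bars are list medians. The members (median 1.89) lie at 1.59 and above, the medians of the pathway lists lie between -0.09 and 0.54, and those of the marker lists between -0.19 and 1.02, the highest being B cell (1.02), gamma-delta (0.97) and natural killer cell markers (0.55).

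Markers of other cells that use these receptors were read beside the members. In bulk RNA, more cells of a type and more RNA per cell cannot be told apart, here and for every member above. The 11 natural killer cell markers summed to 109 and 112 CPM in wild type and to 211 and 240 CPM in the knockout-labelled libraries. Most of the difference between these sums lay in Gzma alone. Of the 9 tested, 1 rose and 8 did not pass the test (median log2 fold change 0.55). Gzma, which encodes granzyme A, rose from 34.0 and 29.6 CPM to 112 and 159 CPM (log2 fold change 2.09, SE 0.20, edgeR adjusted p = 0.0103), and Gzmb was at 62.5 to 74.8 CPM in the 4 libraries. Ncr1, the defining receptor of natural killer cells, had 0 counts in both wild type libraries and 8 and 3 counts in the knockout-labelled libraries. Klrb1c, which encodes NK1.1, was at 1.16 and 0.671 CPM in wild type against 2.21 and 0.894 CPM in the knockout-labelled libraries, which overlap. Prf1, which encodes perforin, was at 3.62 and 3.96 CPM in wild type against 6.63 and 4.47 CPM in the knockout-labelled libraries (edgeR adjusted p = 0.25). Of this list, Tyrobp and Fcer1g are also in the list of activating adaptors, and Klrb1c and Klra8 are lectin genes of the same complex. The part of natural killer cells in the members' levels was not tested.

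The CD8 T cell markers overlapped between groups. Cd8a was at 81.0 and 120 CPM in wild type and at 113 and 41.2 CPM in knockout-labelled 22 and 24, and Cd8b1 at 43.8 and 62.9 CPM and then 69.1 and 37.3 CPM. For both genes edgeR called 0 of 2 (0 at an unadjusted p below 0.05, and 0 by DESeq2 or limma-voom), and knockout-labelled 24 was the lowest of the 4 libraries for both. Klrk1 (35.4 against 56.7 CPM), Klrc1 (83.9 against 120) and Klrc2 (20.6 against 24.0) were lower in knockout-labelled 24 than in knockout-labelled 22. Klrd1 (110 against 107), Klre1 (4.66 against 5.09), Klrc3 (2.87 against 3.08) and Klri2 (23.5 against 24.2) differed by 1.09-fold or less. The part of CD8 T cells in the members' levels was not tested. Cd4 was at 1028 and 999 CPM in wild type against 1257 and 986 CPM in the knockout-labelled libraries, and edgeR called 0 of the 10 CD4 T cell markers, with 1 higher and 1 lower at an unadjusted p below 0.05, Cd28 higher by DESeq2 and 0 by limma-voom.

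Of 8 gamma-delta and invariant T cell markers, 6 were tested, 3 rose and 3 did not pass the test (median log2 fold change 0.97). The list summed to 21.9 and 21.7 CPM in wild type against 45.4 and 63.7 CPM in the knockout-labelled libraries. Cd163l1, a scavenger receptor of gamma-delta T cells, rose from 0.306 and 0.537 CPM to 5.82 and 7.28 CPM (log2 fold change 3.95, SE 0.40, edgeR adjusted p = 0.0106). Its 5 and 8 wild type counts lie below the filter on low counts, which it passed through the knockout-labelled group alone, so nothing is read from its call or from its place in the count. The gamma chain constant segments Tcrg-C1 and Tcrg-C2 had log2 fold changes of 1.98 (SE 0.41, edgeR adjusted p = 0.0350) and 1.48 (SE 0.32, edgeR adjusted p = 0.0388), and both lost the call with limma-voom, without wild type 15 (0.0943 and 0.137) and with limma on log2(FPKM + 1) (0.0611 and 0.0653) and log2(FPKM + 0.1) (0.0551 and 0.0596). Trdc, the constant segment of the delta chain, was at 5.09 and 6.57 CPM in wild type against 10.1 and 5.81 CPM in the knockout-labelled libraries, which overlap (edgeR adjusted p = 0.374). Tcrg-C4 had a log2 fold change of -0.02. The part of gamma-delta T cells in the members' levels was not tested.

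The 5 B cell markers summed to 221 and 224 CPM in wild type and to 276 and 330 CPM in the knockout-labelled libraries (median log2 fold change 1.02). With edgeR 0 of the 5 passed the threshold, all 5 were higher at an unadjusted p below 0.05, and DESeq2 and limma-voom called 0. Among the most abundant, Ighm had a log2 fold change of 0.41 (edgeR adjusted p = 0.105) and Cd79b 0.79 (edgeR adjusted p = 0.0603). The 5 myeloid markers summed to 22.9 and 28.1 CPM in wild type against 22.7 and 28.3 CPM in the knockout-labelled libraries, and edgeR, DESeq2 and limma-voom called 0 of them, with 0 at an unadjusted p below 0.05 in edgeR. Of the 4 Treg markers, Foxp3 fell as given above and Il2ra, the high-affinity IL-2 receptor chain, fell by 0.52 on the log2 scale (SE 0.10, edgeR adjusted p = 0.0304, and 0.166 and 0.247 without wild type 13 or 15). Ctla4 and Ikzf2 had log2 fold changes of 0.41 and 0.34, with edgeR adjusted p of 0.0702 and 0.103.

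The genes whose pattern over the 4 libraries was most like that of Klrd1 were found by the root mean square distance between log2 CPM values centred on each gene's own mean, among 11727 genes that have an established symbol. The 5 nearest were Tcrg-V4 (0.0314), a gamma chain variable segment, Il17a (0.0408), the cytokine of T helper 17 cells, Ddx4 (0.0592), a germline RNA helicase, Arhgap32 (0.0845) and Nhsl2 (0.0934). Il17a was at 69.2 and 70.5 CPM in wild type against 261 and 278 CPM in the knockout-labelled libraries. The other 4 were at 0.537 to 1.07 CPM in wild type, so their likeness rests on few counts. The nearest member was Klrc1, at 0.238 with 74 genes closer, and the farthest was Klrc2, at 0.425 with 353 genes closer. The other members of the cluster were thus not the nearest genes to Klrd1 by this measure, which over 4 libraries describes mainly the size of the group difference.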

How the data were processed

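Transcripts of splenic CD4+ T cells cultured for 3 days (2 wild type and 2 Setd2-CD4 cre libraries) were sequenced, per the labels' protocols, on an Illumina HiSeq instrument from TRIzol-extracted total RNA. Reads were handled with Bowtie2, RSEM and the GRCm38.p6 (mm10) build, per the submitters' processing notes. For their versions, the annotation and the strand setting, the status is: not given in the sources used here. The authors deposited whole-number counts for 34745 genes and, in the same table, FPKM. The deposited FPKM of a gene scale with its count and with 1 length per gene.

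The test on counts was edgeR 4.0.16 (R 4.3.3): filterByExpr (minimum count 10, minimum total 15), trimmed mean of M values scaling (factors 1.02, 1.02, 0.959 and 1 for libraries 13, 15, 22 and 24), glmQLFit and glmQLFTest, two-sided, no covariate, Benjamini-Hochberg adjustment over 13279 genes, threshold 0.05. CPM use the scaled library sizes, and a standard error is the log2 fold change over the square root of F. The biological coefficient of variation was 0.157. Replicates correlated at 0.989 (wild type) and 0.979 (knockout-labelled) in log2 CPM across genes, which are not independent replicates. Floors of 3 counts and 95% intervals cover counting error only. The procedure was tested on simulated data.

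The members and lists were chosen with earlier results of these data known. Named genes are the members, tested genes of the window, listed genes past the threshold with up to 3 more per list by mean CPM, the 5 genes most like Klrd1, and Setd2. Genes named outside this rule were chosen after their values were seen. A gene that the rule takes is not reported here. Of 152 distinct listed genes, 145 were found by symbol, 1 by identifier and 6 not at all. Shared stretches, transcript lengths and gene models come from GENCODE M21, promoters from RefSeq by symbol (5 of 7 members; Klrd1 and Klri2 were not matched), aligned with Biopython 1.88. Alternatives were other scalings and filters, robust dispersion, DESeq2 1.42.0, limma-voom and limma on log2(FPKM + 1) and log2(FPKM + 0.1) with limma 3.58.1, and leaving out each library. Figures were drawn with matplotlib 3.10.9.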

Additional observations from a re-analysis of the deposited data

How the results depend on the processing

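No member reversed under any alternative run. The members were chosen on this contrast, so nothing is read from how often their calls were kept. Klrc3 also passed the filter only through the knockout-labelled group. Klrd1, Klrc1, Klrc2, Klrk1 and Klri2 stayed past the threshold under all 14, Klrc3 under 12 and Klre1 under 10, the exceptions for Klre1 being log2(FPKM + 0.1) and the fits that left out wild type 13, wild type 15 or knockout-labelled 22. Members called higher ran from 5 to 7 when a library was left out, with the 5 in the fits without either wild type library. Their median log2 fold change ran from 1.84 to 2.05 there and was 1.44 on log2(FPKM + 1). No paired analysis was possible because the replicate numbers differ between the groups.

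Over all genes, 734 were called higher and 610 lower, but 674 and 771 with scaling by library total, so the larger side turns with the scaling. With no filter on low counts these were 1261 and 1088. On log2(FPKM + 1) 445 were higher, and on log2(FPKM + 0.1) 457. Leaving out 1 library gave 120 to 2122 higher and 70 to 2002 lower, with the lowest counts without wild type 15 (120 and 70) and wild type 13 (192 and 129) and the highest without knockout-labelled 24 (2122 and 2002). A library left alone in its group is taken to vary as the other group does. Of the pathway list genes, 6 were called higher and 2 lower. There were 13 and 4 with no filter, 12 and 4 with DESeq2, 3 higher on either FPKM scale, and 2 to 20 higher and 0 to 8 lower when a library was left out: 2 and 0 without wild type 13, 0 lower without wild type 15, 15 and 5 when knockout-labelled 22 was left out, and 20 and 8 for knockout-labelled 24. The cause was not tested.

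Klrc1 held 45.9% of the members' summed FPKM in wild type against 40.1% in the knockout-labelled libraries, but 37.8 and 32.5% of their counts, and 28.6 and 24.8% per base of the longest coding transcript. Klrd1 held 39.9 and 41.2% of FPKM, 34.6 and 35.3% of counts and 56.5 and 57.6% per base, so the gene ranked first changes with the length used. Levels below about 1 CPM, such as Klrc3 in wild type, are limited by counting error.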
